A study of Sorghum bicolor with 16 samples.

Results

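The change of the wild-type sorghum endosperm transcriptome between 6 and 11 DPA (days post anthesis) was followed in the 4 BTx623 libraries of these 2 ages, out of 16 libraries in the series. Of the 34129 genes of the table, 16781 had a mean above 1 FPKM (fragments per kilobase of gene model, relative to all fragments mapped in the library) at 6 or 11 DPA, and these were compared between the ages. This filter used the same 4 libraries as the comparison. Of the genes, 1497 passed it at 6 DPA alone and 977 at 11 DPA alone, through the age where they were higher. The series paired BTx623, the unmutagenised line called WT here, with 15M2-1184, a line from EMS (ethyl methanesulfonate) mutagenesis of BTx623 that carries wxe, a stop-gained allele of the granule-bound starch synthase gene GBSSI, beside other EMS mutations. Both lines were sampled at 6, 11, 16 and 21 DPA with 2 replicates per age. The plants were field grown, and each replicate pooled endosperm dissected from the middle of 3 panicles that had flowered on the same day. WT is thus a single inbred line, and the spread between 2 libraries is that between 2 pools of panicles. The labels give no batch or harvest date, so age cannot be told apart from anything else that differed between the samplings.

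The endosperm of a cereal grain is a triploid tissue that begins as dividing nuclei and cells and then turns to filling. Sucrose arriving from the mother plant is cleaved by sucrose synthase or invertase, converted to ADP-glucose by ADP-glucose pyrophosphorylase, and built into amylose by GBSSI and into amylopectin by soluble starch synthases and branching enzymes. Kafirins, the prolamin storage proteins of sorghum, are laid down in protein bodies beside the starch, and in cereals such as maize the genes of both stores are controlled by NAC and bZIP transcription factors of the endosperm. No sequence is shown, because the gene IDs matched no entry of the reference at hand. Names and roles were taken from the study's text, except for the kafirins, which were known from earlier results of these data. They cover 36 of the tested genes. For lack of annotation no marker list of embryo, pericarp or other tissue was run, so RNA of other tissues in the dissected endosperm was not tested.

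The 4 libraries were alike within each age by their correlation on the log scale. Pearson's r across the 16781 tested genes between the 2 replicates, on log2(FPKM + 1), was 0.993 at 6 DPA and 0.992 at 11 DPA (genes are not independent replicates). On FPKM itself, over all genes of the table, r was 0.972 at 6 DPA and 0.995 at 11 DPA. At 6 DPA every named storage protein gene was higher in replicate 2 than in replicate 1. The table holds no counts and the absolute depth is unknown. The lowest values of a library fall on steps of 1 fragment, and comparing these steps gene by gene showed that 1 fragment was worth 1.85 and 1.99 times as many FPKM in the 11 DPA libraries as in replicate 1 at 6 DPA. A given FPKM value therefore rested on about 0.540 and 0.503 times as many fragments in the 11 DPA libraries, and low genes carry more counting error there. Whether fewer fragments were sequenced cannot be told from the steps, since it is not given whether the values were scaled further. Genes listed at 0 numbered 8773 and 8804 at 6 DPA and 10556 and 10847 at 11 DPA.

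From 6 to 11 DPA, 6819 of the 16781 genes (40.6%) changed, 3297 of them upward (19.6%) and 3522 downward (21.0%). A change was called where the adjusted p lay below 0.05 and the log2 change was 0.58 or more in size, tested two-sided with limma on log2(FPKM + 1) in 1 model of all 8 groups, with Benjamini-Hochberg adjustment over the 16781 genes. At an unadjusted p below 0.05 the count was 10612 (63.2%). Log2 changes are of FPKM + 1, so low genes changed by more than they show, and SE is their standard error. For 1 gene taken alone, the smallest p of an exact permutation test is 0.333 with 2 libraries per age, so that each call rests on the spread limma shared across genes and groups.

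Most calls were moderate in size. Of the genes that rose, 1713 had a log2 change of at least 1, 470 of at least 2, 172 of at least 3 and 47 of at least 5. Of those that fell, 1669 fell by at least 1, 413 by at least 2, 197 by at least 3 and 36 by at least 5. Genes above 1 FPKM numbered 15804 at 6 DPA and 15284 at 11 DPA, 14307 of them at both ages, 1497 at 6 DPA alone and 977 at 11 DPA alone by this threshold. Among the called genes, 16 were listed at 0 in both 6 DPA libraries and 44 were listed at 0 in both 11 DPA libraries, where an exact 0 can also be a failed estimate.

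**Figure D1:**
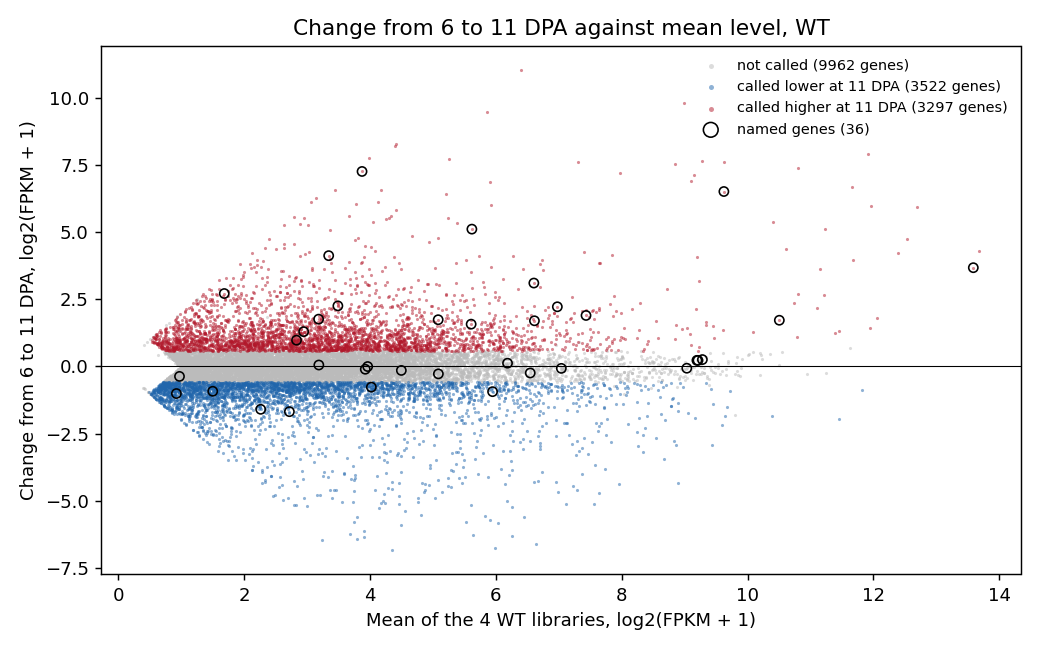
Change from 6 to 11 DPA in WT (11 minus 6 DPA, log2(FPKM + 1)) against the mean level of the 4 WT libraries, 1 point per gene for the 16781 genes tested. Red points (3297) were called higher, blue points (3522) lower and grey points were not called. Open circles mark the 36 named genes, whose changes run from -1.68 to 7.27.

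The split into higher and lower rests on how the libraries are scaled to each other. The upper quartile of FPKM was nearly level, at 6.31 and 6.32 in the 6 DPA libraries and 6.43 and 6.47 in the 11 DPA libraries. The sum of FPKM was 493357 and 525307 at 6 DPA and 948355 and 1001504 at 11 DPA. On the deposited scale the median change of all tested genes was -0.02 and 48.4% of the calls were upward. When each library was instead rescaled to the same FPKM sum, which turns a value into a share of the library, the median moved to -0.81, and 9.45% of 11610 calls were upward (1097 higher, 10513 lower). Levels below are FPKM as deposited, and the genes whose direction or call turned on this choice are pointed out singly or by group.

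The summed FPKM moved into a small set of very abundant genes. 50% of it was held by 522 and 460 genes in the 6 DPA libraries and by 23 and 25 genes in the 11 DPA libraries. The 10 most abundant genes of each library held 5.91% and 6.57% at 6 DPA, and 38.2% and 37.9% at 11 DPA. The genes called higher took 14.8% of the summed mean FPKM at 6 DPA and 67.7% at 11 DPA, and the genes called lower went from 33.6% to 5.69%, as a description of genes chosen on this same contrast. The 20 most abundant genes at 11 DPA held 47.6% of the sum at that age and 3.16% at 6 DPA. Being chosen at 11 DPA, they had to lie high at that age, and all 20 were called higher. Only 3 of these 20 were among the 20 most abundant at 6 DPA, a set that held 9.47% at 6 DPA and 14.5% at 11 DPA. That set was in turn chosen by its level at 6 DPA, and 6 of its genes were called higher and 9 lower. Among all tested genes above 100 FPKM at the higher age, 26.4% were called higher and 30.1% lower.

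**Figure D2:**
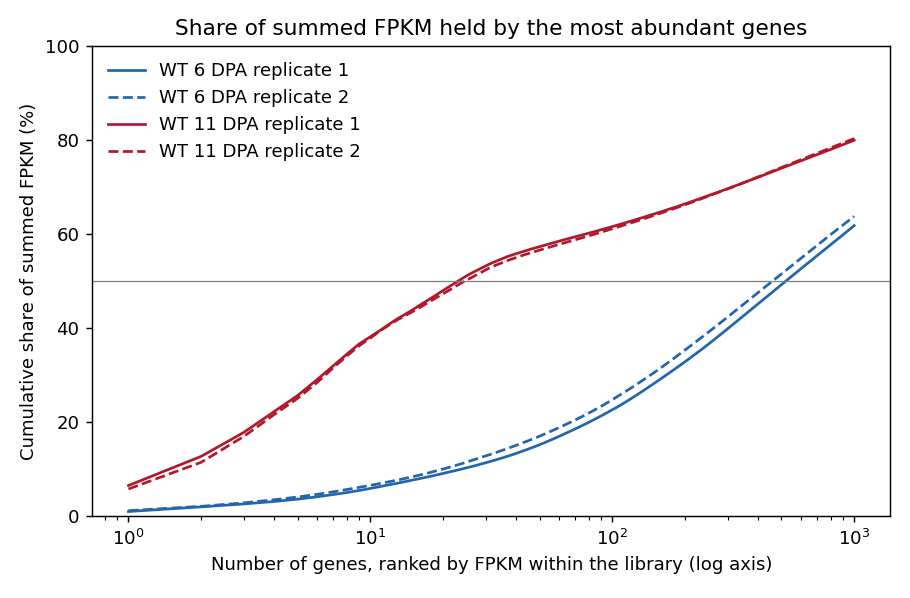
Cumulative share of the summed FPKM (%) against the number of genes ranked by FPKM within each library (log axis), for the 4 WT libraries at 6 DPA (blue) and 11 DPA (red). The grey line marks 50%, which the 6 DPA libraries reach at 522 and 460 genes and the 11 DPA libraries at 23 and 25 genes.

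A single stretch of chromosome 5 carried much of this shift. Among the 201 rows of the table centred on the kafirin gene Sobic.005G186300, with 100 rows on either side in ID order, the summed mean FPKM went from 6650 at 6 DPA to 299887 at 11 DPA. As a share of all genes this was 0.986% and 1.61% in the 6 DPA libraries and 31.0% and 30.6% in the 11 DPA libraries. Of these rows, 14 genes stood above 1000 FPKM at 11 DPA and 1 at 6 DPA. The 14 had 11.4 to 1179 FPKM at 6 DPA and 2238 to 60006 FPKM at 11 DPA, with log2 fold changes of 4.76 to 9.83, and together held 30.5% of the sum at 11 DPA. Being split off by their level at 11 DPA, the 14 had to lie high at that age. The other 73 tested genes of the stretch had a median change of -0.09, with 21 called higher and 21 called lower. Over all tested genes 19.6% were called higher and 21.0% lower. The files give these 14 IDs no name. Where neighbouring genes are near-identical copies, as kafirin genes of this kind can be, reads may be shared between them, so that the sum is firmer than the value of any single gene.

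The 3 genes known here as kafirins all rose, from very different starting levels (FPKM is per length and can be compared between genes). Sobic.009G001600, on chromosome 9, had 3064 and 3846 FPKM at 6 DPA and 41823 and 46371 FPKM at 11 DPA. The ages did not overlap, and the means of 3455 ± 553 and 44097 ± 3216 FPKM (SD, n = 2) differed 12.8-fold, a log2 change of 3.68 (SE 0.33, limma adjusted p = 1.35e-06). Of the alternatives run, only quantile normalization, which sets values by rank within a library, gave this gene another sign (-0.37). It alone made up 0.678% of the summed FPKM at 6 DPA and 4.52% at 11 DPA.

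Sobic.010G136100, on chromosome 10, had 49.6 and 133 FPKM at 6 DPA and 8899.8 and 6409 FPKM at 11 DPA. The 2 younger libraries stood apart from each other but both lay far below the older ones, with a log2 change of 6.52 (SE 0.37, limma adjusted p = 3.28e-08) and 83.9-fold higher mean FPKM. Sobic.005G186300, on chromosome 5, had 0.0702 and 0.303 FPKM at 6 DPA and 175 and 187 FPKM at 11 DPA, a log2 change of 7.27 (SE 0.27, limma adjusted p = 1.11e-09). Its level at 6 DPA was close to 0, and with a pseudocount of 0.1 in place of 1 the log2 change was 9.43.

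Both globulin genes, storage protein genes known in maize mainly from the embryo, rose from near 0. Globulin-2 (Sobic.001G059800) had 1.35 and 1.51 FPKM at 6 DPA and 41.2 and 41.8 FPKM at 11 DPA. The groups did not overlap, and the log2 change was 4.13 (SE 0.49, limma adjusted p = 1.51e-05). Globulin-1 (Sobic.001G144900) had 0.236 and 0.270 FPKM at 6 DPA and 8.77 and 5.96 FPKM at 11 DPA. Its log2 change of 2.72 (SE 0.75, limma adjusted p = 0.00767) had the largest standard error of the named genes, and its call was lost without replicate 1 at 11 DPA (adjusted p = 0.0503). With a pseudocount of 0.1 it became 4.38. The part of embryo RNA in these values was not tested. All 5 named storage protein genes were thus called higher, with a median of 4.13 against -0.02 over all tested genes and beside 19.6% of all genes called higher. The globulin names come from the study and the kafirins from earlier results of these data, both chosen on the same libraries, so the count is no independent evidence of a direction.

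**Figure D3:**
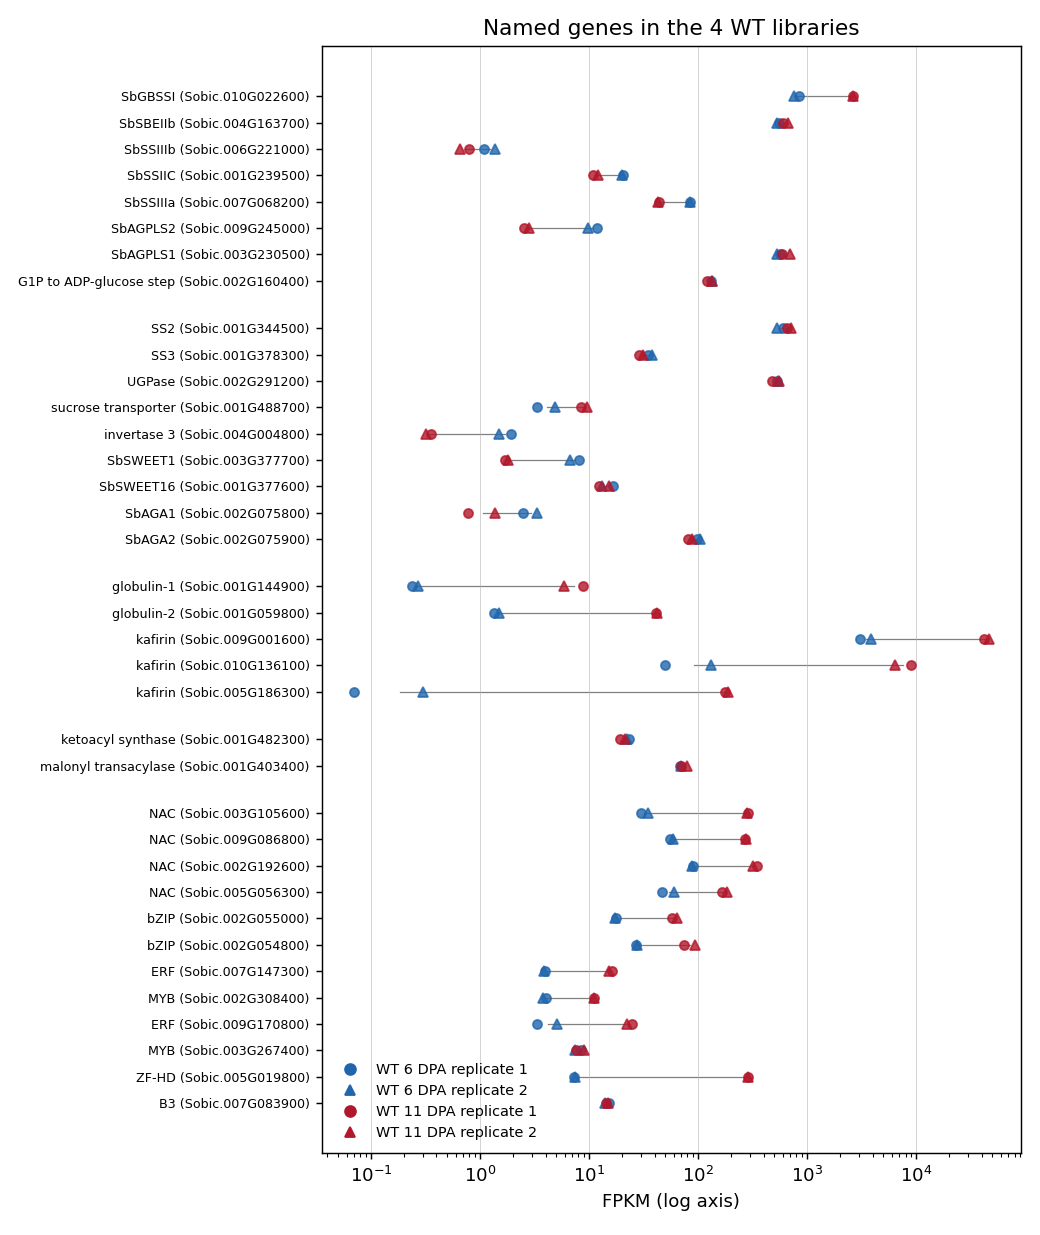
FPKM (log axis) of the 36 named genes in the 4 WT libraries, grouped from the top into starch, sugar, storage protein, lipid and transcription factor genes. Blue marks are the 6 DPA libraries and red marks the 11 DPA libraries (circles replicate 1, triangles replicate 2), and grey lines join the means. UGPase is the uridylyltransferase and G1P glucose 1-phosphate. The storage protein genes and most factors lie well to the right at 11 DPA, while most abundant starch and sugar genes overlap or nearly so.

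Starch genes moved in both directions, and most of the abundant ones moved little on the deposited scale. Of the 8 named, SbGBSSI was called higher, 3 were called lower and 4 were not called, with a median of -0.22. Over all tested genes 19.6% were called higher and 21.0% lower, with a median of -0.02. SbGBSSI (Sobic.010G022600), the granule-bound synthase that makes amylose, had 847 and 752 FPKM at 6 DPA and 2657 and 2617 FPKM at 11 DPA. The ages stood apart, at 799.9 ± 67.2 and 2637 ± 28.3 FPKM (SD, n = 2), a 3.30-fold difference with a log2 change of 1.72 (SE 0.16, limma adjusted p = 1.73e-06). Rescaled to the same FPKM sum the log2 change was 0.79 and still called.

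Among the soluble synthases, which elongate amylopectin chains, SbSSIIIa and SbSSIIC were lower at 11 DPA. SbSSIIIa (Sobic.007G068200) had 84.2 and 84.7 FPKM at 6 DPA and 44.3 and 42.9 FPKM at 11 DPA. The 2 ages did not overlap, but the pooled standard error of 0.30 was wide beside the replicates of WT, since the wxe libraries at 6 DPA were at 69.6 and 27.4 FPKM. The log2 change was -0.94 (limma adjusted p = 0.0160), and leaving out any 1 of the 4 WT libraries took the adjusted p to between 0.0555 and 0.0657, past the threshold. SbSSIIC (Sobic.001G239500) had 20.38 and 20.03 FPKM at 6 DPA and 10.91 and 11.99 FPKM at 11 DPA, a log2 change of -0.77 (SE 0.12, limma adjusted p = 1.21e-04). SbSSIIIb (Sobic.006G221000), a further synthase, was close to the filter of 1 FPKM, with 1.09 and 1.38 FPKM at 6 DPA and 0.798 and 0.660 FPKM at 11 DPA. Its log2 change of -0.37 (limma adjusted p = 0.0237) stayed under the fold threshold.

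ADP-glucose pyrophosphorylase, which makes the sugar nucleotide used by all starch synthases, has a large subunit encoded by several genes, and these differed in their course. SbAGPLS2 (Sobic.009G245000) had 11.9 and 9.77 FPKM at 6 DPA and 2.54 and 2.82 FPKM at 11 DPA, a 4.06-fold lower mean with a log2 change of -1.68 (SE 0.20, limma adjusted p = 1.41e-05). SbAGPLS1 (Sobic.003G230500) was far more abundant at both ages, with 562 and 532 FPKM at 6 DPA and 593 and 691 FPKM at 11 DPA. Its log2 change of 0.23 (SE 0.16, limma adjusted p = 0.233) did not pass the test on the deposited scale and was -0.71 when rescaled to the same FPKM sum. Sobic.002G160400, which the study places at the step from glucose 1-phosphate to ADP-glucose, had 132 and 136 FPKM at 6 DPA and 121 and 134 FPKM at 11 DPA, and these ranges overlapped.

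SbSBEIIb (Sobic.004G163700), a branching enzyme of amylopectin, had 556 and 525 FPKM at 6 DPA and 604 and 663 FPKM at 11 DPA. The older libraries were slightly above the younger ones, with a log2 change of 0.23 (SE 0.14, limma adjusted p = 0.190) that did not pass the test and that was -0.71 when rescaled. On that scale 7 of the 8 starch genes were called lower, and SbGBSSI alone was called higher. All tested genes had a median of -0.81 on it, and 9.45% of all calls were upward.

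The named genes of sugar metabolism and transport moved in both directions, and the abundant ones were not called on the deposited scale. Of the 9, 1 was called higher, 2 were called lower and 6 were not called (beside 19.6% and 21.0% of all tested genes called higher and lower), with a median log2 fold change of -0.24. When rescaled to the same FPKM sum 8 were called lower, where all tested genes had a median of -0.81 and 9.45% of all calls were upward. SS2 (Sobic.001G344500), a sucrose synthase, had 605 and 534 FPKM at 6 DPA and 654 and 706 FPKM at 11 DPA. Both older libraries were above both younger ones, but the log2 change of 0.26 (SE 0.16, limma adjusted p = 0.188) was not called, and it was -0.68 when rescaled to the same FPKM sum. SS3 (Sobic.001G378300), the other sucrose synthase, had 34.8 and 38.0 FPKM at 6 DPA and 28.5 and 31.3 FPKM at 11 DPA (log2 fold change -0.28, limma adjusted p = 0.0880). Sobic.002G291200, a UTP-glucose-1-phosphate uridylyltransferase that links sucrose cleavage to glucose 1-phosphate, had 525 and 545 FPKM at 6 DPA and 476 and 549 FPKM at 11 DPA, with overlapping ages.

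The genes of sugar entry and cleavage that did move were of low abundance. A sucrose transporter gene (Sobic.001G488700) had 3.36 and 4.90 FPKM at 6 DPA and 8.39 and 9.67 FPKM at 11 DPA. The ages did not overlap and the log2 change was 0.98 (SE 0.17, limma adjusted p = 4.05e-04), but on the rescaled scale it was 0.18 and not called. Invertase 3 (Sobic.004G004800), which cleaves sucrose to glucose and fructose, had 1.91 and 1.49 FPKM at 6 DPA and 0.356 and 0.319 FPKM at 11 DPA, a log2 change of -1.01 (SE 0.17, limma adjusted p = 2.63e-04). Its pseudocount-dependent value was -2.03 with a pseudocount of 0.1, and its mean FPKM was 5.03-fold lower. SbSWEET1 (Sobic.003G377700), of the SWEET family of sugar carriers, had 8.09 and 6.67 FPKM at 6 DPA and 1.70 and 1.82 FPKM at 11 DPA, a log2 change of -1.60 (SE 0.31, limma adjusted p = 8.39e-04).

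SbSWEET16 (Sobic.001G377600), a carrier of the same family, had 16.5 and 13.2 FPKM at 6 DPA and 12.3 and 15.2 FPKM at 11 DPA. The ages overlapped, with a log2 change of -0.10 (SE 0.25, limma adjusted p = 0.737). The 2 genes the study assigns to raffinose metabolism did not pass the test. SbAGA2 (Sobic.002G075900) had 97.2 and 104 FPKM at 6 DPA and 81.6 and 88.4 FPKM at 11 DPA (log2 fold change -0.24, limma adjusted p = 0.0593). SbAGA1 (Sobic.002G075800) had 2.50 and 3.35 FPKM at 6 DPA and 0.777 and 1.38 FPKM at 11 DPA (log2 fold change -0.92, SE 0.56, limma adjusted p = 0.174). This standard error came with wxe libraries of 5.28 and 35.6 FPKM at 6 DPA, and with the 8 WT libraries alone SbAGA1 was called lower (adjusted p = 0.00798). Both lipid genes named, a 3-ketoacyl-CoA synthase 1 of fatty acid elongation (Sobic.001G482300) and a malonyl CoA-acyl carrier protein transacylase of fatty acid synthesis (Sobic.001G403400), were not called, with log2 fold changes of -0.15 and 0.12. When rescaled both were called lower, at -1.05 and -0.80, beside a median of -0.81 over all tested genes.

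Of the 12 transcription factor genes, 10 were called higher, none was called lower, and Sobic.003G267400 and Sobic.007G083900 were not called. The median was 1.75, against -0.02 over all tested genes and beside 19.6% of all genes called higher. These too were picked by the study on these libraries. All 4 NAC genes rose. Sobic.003G105600 had 29.8 and 34.5 FPKM at 6 DPA and 288 and 281 FPKM at 11 DPA, an 8.84-fold rise with a log2 change of 3.11 (SE 0.15, limma adjusted p = 9.87e-09). The other NAC genes were already more abundant at 6 DPA. Sobic.009G086800 had 55.1 and 59.5 FPKM at 6 DPA and 269.6 and 273 FPKM at 11 DPA, a log2 change of 2.22 (SE 0.11). Sobic.002G192600 had 89.4 and 87.4 FPKM at 6 DPA and 347 and 319.5 FPKM at 11 DPA, and Sobic.005G056300 had 47.1 and 60.2 FPKM and then 166 and 186 FPKM, with log2 fold changes of 1.90 and 1.70. Together the 4 NAC genes summed to 232 FPKM at 6 DPA and 1065 FPKM at 11 DPA.

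The ZF-HD gene Sobic.005G019800 had the largest rise among the factors. It had 7.24 and 7.44 FPKM at 6 DPA and 289.7 and 287 FPKM at 11 DPA, which is 39.3-fold, with a log2 change of 5.12 (SE 0.11, limma adjusted p = 2.29e-11). Its mean at 6 DPA was below that of every NAC and bZIP gene named, and at 11 DPA Sobic.002G192600 alone among the 12 factors had a higher mean. The bZIP genes Sobic.002G055000 and Sobic.002G054800 rose side by side. The first had 17.7 and 17.4 FPKM at 6 DPA and 58.2 and 63.9 FPKM at 11 DPA, and the second had 26.8 and 27.7 FPKM and then 73.7 and 93.9 FPKM, with log2 fold changes of 1.74 and 1.58.

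Of the ERF genes, Sobic.009G170800 had 3.31 and 5.11 FPKM at 6 DPA and 24.8 and 22.5 FPKM at 11 DPA (log2 fold change 2.26, SE 0.26, limma adjusted p = 1.14e-05). Sobic.007G147300 had 3.97 and 3.89 FPKM at 6 DPA and 16.3 and 15.2 FPKM at 11 DPA (log2 fold change 1.76, SE 0.20). The MYB genes parted. Sobic.002G308400 rose from 4.02 and 3.82 FPKM to 11.1 FPKM in both 11 DPA libraries (log2 fold change 1.30), which fell to 0.50, under the fold threshold, when rescaled to the same FPKM sum. Sobic.003G267400 had 8.40 and 7.50 FPKM at 6 DPA and 7.55 and 9.08 FPKM at 11 DPA, with overlapping ages. The B3 gene Sobic.007G083900 also overlapped, with 15.2 and 14.1 FPKM at 6 DPA and 14.2 and 14.9 FPKM at 11 DPA. These last 2 were called lower on the rescaled scale, at -0.79 and -0.88, beside a median of -0.81 over all tested genes.

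Larger rises than the rise of any named gene, and larger falls than the fall of any, were found among IDs without a name. Sobic.007G075301, on chromosome 7, had the largest rise among genes reaching 10 FPKM. It had 1.43 and 0.385 FPKM at 6 DPA and 3486 and 4334 FPKM at 11 DPA, a log2 change of 11.05 (SE 0.46, limma adjusted p = 2.97e-09). Sobic.005G184500, within the chromosome 5 stretch above, followed with 8.49 and 28.6 FPKM at 6 DPA and 14299.6 and 16221 FPKM at 11 DPA. On the downward side, Sobic.002G058000 had 153 and 308 FPKM at 6 DPA and 1.07 and 0.736 FPKM at 11 DPA, a log2 change of -6.85 (SE 0.30, limma adjusted p = 4.37e-09). Sobic.001G425500 had 541 and 802 FPKM at 6 DPA and 3.53 and 7.07 FPKM at 11 DPA, a log2 change of -6.77 (SE 0.45, limma adjusted p = 1.13e-07). In these 4 genes the 2 replicates of an age differed by far less than the ages did.

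Calls were spread over all levels. Among 9203 genes with a mean of 1 to 10 FPKM at the higher age, 15.3% were called higher and 21.1% lower. Among 6432 genes of 10 to 100 FPKM these shares were 24.7% and 19.2%, and among 1146 genes above 100 FPKM they were 26.4% and 30.1%. By chromosome, the share called lower ran from 19.7% to 26.6% of the tested genes and was highest on chromosome 5.

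Most genes stayed on the side of their 6 DPA level to which they had moved. Of the 3522 genes called lower at 11 DPA, 3323 (94.3%) had their highest WT mean at 6 DPA, and 95.5% were still below their 6 DPA mean at 16 DPA and 97.0% at 21 DPA. Of the 3297 called higher, 1417 (43.0%) peaked at 11 DPA by their WT means, 476 did so at 16 DPA and 1404 (42.6%) did so at 21 DPA, and 83.2% were still above their 6 DPA mean at 16 DPA and 85.9% at 21 DPA. These are descriptions, since the genes were chosen on the 6 and 11 DPA libraries. The same shares over all tested genes were not worked out, so no excess is read from them. The following steps share libraries with this one and are given beside it. From 11 to 16 DPA 5688 of 15974 genes (35.6%) were called, and from 16 to 21 DPA 3238 of 15168 (21.3%). Whether these counts differ was not tested.

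Named genes show these courses. SbGBSSI went on to 6293 ± 227 FPKM at 16 DPA and 8703 ± 147 FPKM at 21 DPA (SD, n = 2), with a further rise from 11 to 16 DPA (log2 fold change 1.25, limma adjusted p = 3.92e-05). SbAGPLS1, not called from 6 to 11 DPA, rose from 642 ± 69.0 to 1100.0 ± 1.82 FPKM from 11 to 16 DPA (log2 fold change 0.78, limma adjusted p = 0.00125). SbSSIIIa was at 82.9 ± 5.92 FPKM at 16 DPA, back near its 6 DPA level (log2 fold change from 11 DPA 0.91, limma adjusted p = 0.0204).

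Other genes that were not called from 6 to 11 DPA fell steeply by 16 DPA. SbSWEET16 went from 13.7 ± 2.07 FPKM at 11 DPA to 0.296 ± 0.187 FPKM at 16 DPA (log2 fold change -3.51, limma adjusted p = 6.11e-07). The MYB gene Sobic.003G267400 went from 8.32 ± 1.09 to 0.0926 ± 0.0447 FPKM (log2 fold change -3.09, limma adjusted p = 1.70e-07), and the 3-ketoacyl-CoA synthase gene Sobic.001G482300 from 20.5 ± 1.57 to 2.88 ± 1.56 FPKM (log2 fold change -2.53, limma adjusted p = 3.07e-05). SS2 fell from 679.7 ± 36.5 to 170.4 ± 15.7 FPKM (log2 fold change -1.99, limma adjusted p = 1.46e-06). The ERF gene Sobic.009G170800, which had risen, fell back to 6.50 ± 1.22 FPKM at 16 DPA (log2 fold change -1.72, limma adjusted p = 1.50e-04).

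**Figure D4:**
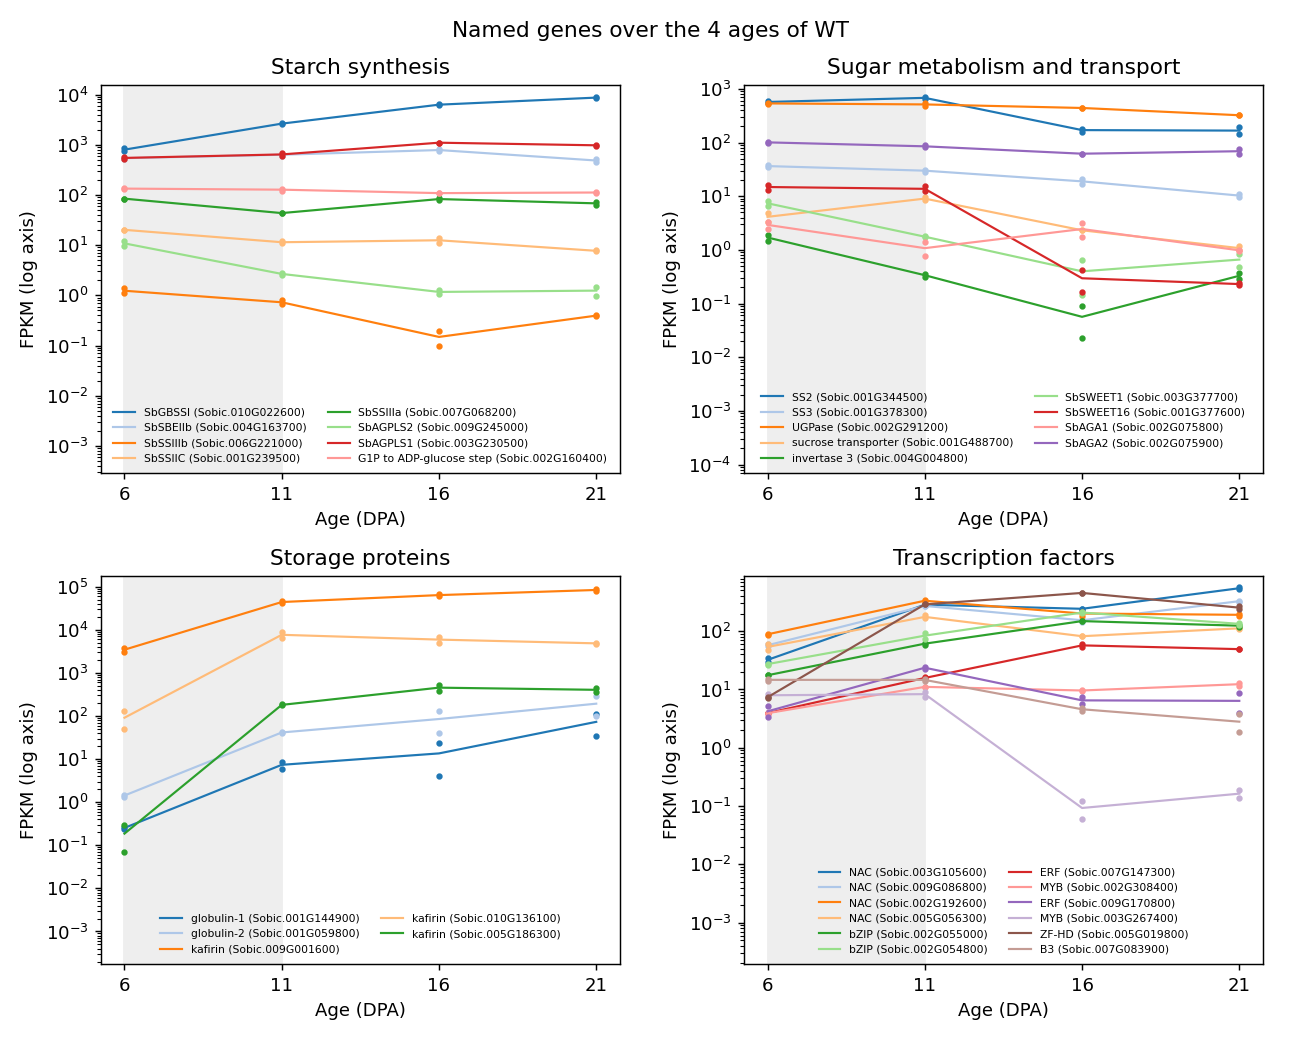
FPKM (log axis) of named starch, sugar, storage protein and transcription factor genes in WT at 6, 11, 16 and 21 DPA. Lines join the means of 2 libraries, points are the libraries, and the shaded band marks 6 to 11 DPA. SbGBSSI climbs through all ages, the storage protein genes climb most steeply inside the band, and SbSWEET16 and the MYB gene Sobic.003G267400 move little inside it and drop to 0.296 and 0.0926 FPKM at 16 DPA.

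In wxe, 8153 of 17185 genes (47.4%) were called over the same interval, 3288 higher (19.1%) and 4865 lower (28.3%). Of the 3297 genes that rose in WT, 1544 were also called higher in wxe, 1158 were not called, 380 were called lower and 215 were under the filter. Of the 3522 that fell in WT, 2223 were also called lower in wxe, 1192 were not called, 42 were called higher and 65 were under the filter. The difference of the change between the genotypes was tested directly, and 6236 of 17703 genes (35.2%) were called, 2453 with a higher change in wxe (13.9%) and 3783 with a lower one (21.4%). At an unadjusted p below 0.05 there were 8870 (50.1%). The study named many of the 36 genes for a difference between the genotypes in these same libraries, so their count is no independent evidence. Of the 36 named genes 28 passed the test of the difference. When rescaled to the same FPKM sum, the NAC gene Sobic.009G086800 (0.65), the bZIP gene Sobic.002G055000 (0.74), the ERF gene Sobic.007G147300 (1.199) and the B3 gene Sobic.007G083900 (1.02) also passed it. Any difference is that of the mutant line, with its other mutations, and of the 2 sets of panicles.

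SbGBSSI, the gene with the stop-gained allele, was detected in every wxe library, at 331 and 329 FPKM at 6 DPA and 1678 and 1633 FPKM at 11 DPA, below both WT libraries of the same age. A stop-gained allele can still be transcribed, so this is no check of the genotype. Among the 8 starch genes, 6 changed more upward in wxe than in WT and none more downward, beside 13.9% and 21.4% of all tested genes. SbSBEIIb had 281 ± 45.4 FPKM in wxe at 6 DPA and 826 ± 127 FPKM at 11 DPA (SD, n = 2), so that its change exceeded that of WT by 1.32 (SE 0.20, limma adjusted p = 3.70e-04). SbAGPLS1 did so by 1.51, from 286 ± 57.9 to 953 ± 152 FPKM in wxe. SbAGPLS2 fell in both genotypes, by 1.68 in WT and 1.56 in wxe on the log2 scale, and this difference was not called (0.12, limma adjusted p = 0.751). Of the genes not called in WT, SbSWEET16 fell in wxe from 59.0 ± 24.2 to 4.35 ± 0.932 FPKM, a change lower than in WT by -3.33 (SE 0.35, limma adjusted p = 2.74e-05), and the MYB gene Sobic.003G267400 from 27.2 ± 6.16 to 2.84 ± 0.532 FPKM (-2.92, SE 0.25, limma adjusted p = 7.99e-06).

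The kafirins differed among themselves. Sobic.010G136100 started at 0.656 ± 0.485 FPKM in wxe and reached 7814 ± 1635 FPKM, close to the 7654 ± 1762 FPKM of WT at 11 DPA, so that its change was higher by 5.70 (SE 0.52, limma adjusted p = 1.25e-05). The change of Sobic.009G001600 was higher by 2.77 (limma adjusted p = 6.51e-04, and 0.155 and no longer called with no filter on low values), and that of Sobic.005G186300 lower by -1.08. The ZF-HD gene Sobic.005G019800 began higher in wxe, at 21.4 ± 2.05 FPKM, and ended lower, at 164 ± 18.9 FPKM against 289 ± 1.59 FPKM in WT, a difference of -2.23 (SE 0.15, limma adjusted p = 1.85e-06).

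**Figure D5:**
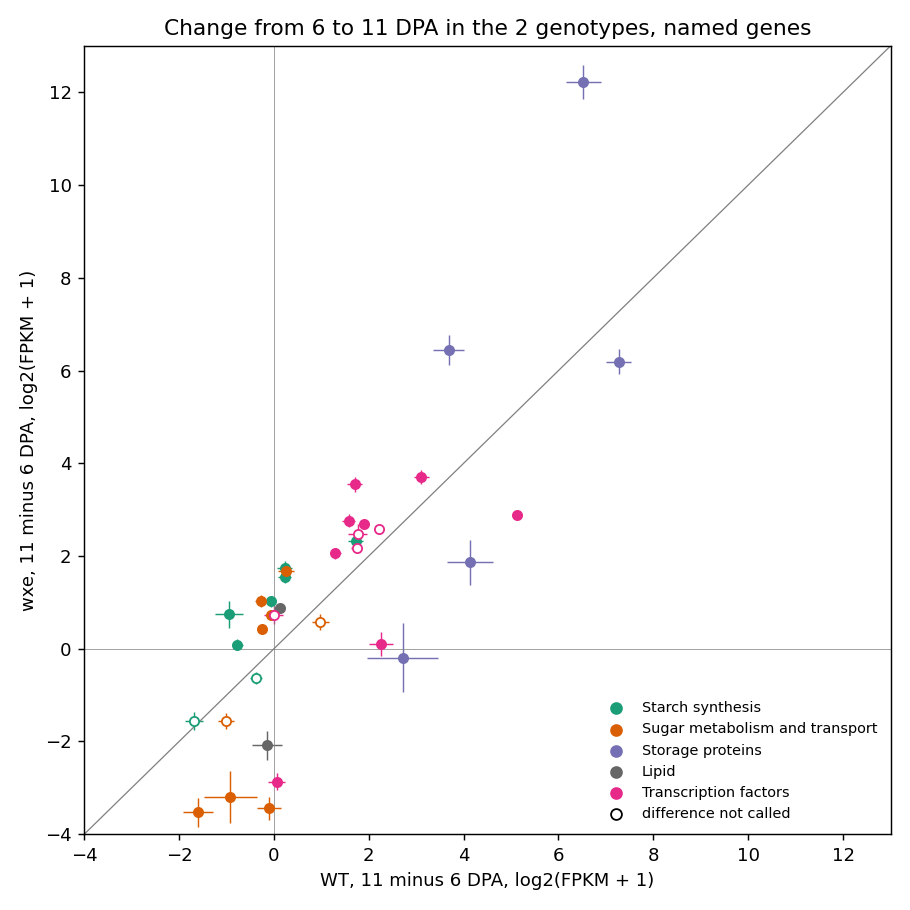
Change from 6 to 11 DPA in wxe against that in WT (both log2(FPKM + 1)) for the 36 named genes, coloured by group, with standard errors from limma as bars. Filled points (28) passed the test of the difference between genotypes and open points did not, and the diagonal marks equal change. Sobic.010G136100 stands highest, at 6.52 in WT and 12.22 in wxe.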

How the data were processed

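RNA from dissected endosperm was sequenced by the authors in paired-end mode after a DNBSEQ library protocol. The study's methods name an Illumina HiSeq instrument beside the DNBSEQ protocol. By the methods, reads were checked with FastQC, mapped by STAR on the sorghum version 3 genome and quantified with Cufflinks, and the submitters' processing notes also name Trimmomatic. Tool versions, annotation release, strand setting and the treatment of multi-mapped reads are not given in the sources used here. The deposited values are FPKM for 34129 genes in 16 libraries, with no counts, so the absolute depth is unknown. The nearly level upper quartile beside a changing FPKM sum was measured on the table, and whether the authors scaled the values further is not given.

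Groups were taken from the sample labels, and replicates are pools of panicles. Values were put on log2(FPKM + 1) and fitted in R 4.3.3 with limma 3.58.1, as 1 model of 8 groups with a variance trend (8 residual degrees of freedom). WT at 11 DPA was compared with WT at 6 DPA over the 16781 genes whose mean passed 1 FPKM at either age, and further contrasts gave the same interval in wxe, the difference between genotypes and the later WT steps. Thresholds (adjusted p below 0.05, absolute log2 fold change of at least 0.58, FPKM above 1) follow the study, whose own test needs reads and was not run. On simulated data of the same layout, 95.5% of 200 genes with a planted log2 change of 1.5 and 57.0% of 200 with 0.7 were called for WT 11 against 6 DPA, with 5 of 15934 and 7 of 15959 unchanged genes called. The planted genes all had a WT mean above 5 FPKM at 6 DPA, so the recovery of lower genes was not measured. Only 200 genes changed in each simulation, far fewer than the 6819 called in the data, which alters the adjustment of p. The simulated noise was normal, with the same spread in all groups. These shares therefore check the procedure and do not carry over to the real comparison.

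Genes named are 36 genes of starch, sugar, storage protein, lipid and transcription factor roles, which the study's text names by ID or, for the kafirins, earlier results did, and the 2 largest rises and falls among called genes with at least 10 FPKM at the higher age. Genes the study names only for a mutation in the wxe line were left out. Members and lists were chosen with earlier results of these data known. The chromosome 5 stretch was chosen after its values were seen. Of the 34129 gene IDs, 0 matched the reference table, so planned lists by gene description, tissue markers and promoter motifs were not run. Alternatives were another pseudocount, other filters, fewer libraries in the fit, a replicate block, other scalings, no variance trend, a fold limit set on FPKM ratios and each library left out. The rescaling without genes above 1000 FPKM in any WT library of the 2 ages was added after seeing the data.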

Additional observations from a re-analysis of the deposited data

Results flagged for a closer look

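The change from 6 to 11 DPA differed between wxe and WT, by limma's test of the difference, for 6236 genes, or 35.2% of those tested. It also passed this test for 28 of the 36 named genes and for 2 of the 4 unnamed genes described. Many of the 36 were named by the study for a difference between the genotypes in these same libraries. Values are the change in wxe minus the change in WT on the log2(FPKM + 1) scale.

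Of the starch genes, SbSSIIIa differed by 1.68, SbAGPLS1 by 1.51, SbSBEIIb by 1.32, Sobic.002G160400 by 1.09, SbSSIIC by 0.86 and SbGBSSI by 0.60. Of the sugar genes, SS2 differed by 1.42, SS3 by 1.30, Sobic.002G291200 by 0.80 and SbAGA2 by 0.67, while SbSWEET16 differed by -3.33, SbAGA1 by -2.28 and SbSWEET1 by -1.93. For the lipid genes the difference was 0.76 (Sobic.001G403400) and -1.93 (Sobic.001G482300).

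Among the storage protein genes it was 5.70 for Sobic.010G136100, 2.77 for Sobic.009G001600, -1.08 for Sobic.005G186300, -2.27 for globulin-2 and -2.91 for globulin-1. Among the factors, the NAC genes Sobic.005G056300, Sobic.002G192600 and Sobic.003G105600 differed by 1.85, 0.80 and 0.59, the bZIP gene Sobic.002G054800 by 1.18 and the MYB gene Sobic.002G308400 by 0.76. The ERF gene Sobic.009G170800 differed by -2.16, the ZF-HD gene Sobic.005G019800 by -2.23 and the MYB gene Sobic.003G267400 by -2.92. Of the unnamed genes, Sobic.007G075301 differed by -6.70 and Sobic.002G058000 by -1.55.

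The calls of SbGBSSI and Sobic.003G105600 lay near the threshold (adjusted p = 0.0468 and 0.0454 from limma) and those of SbAGA1, both globulins and Sobic.005G186300 at 0.0200 to 0.0438, and each of these 6 was lost when single libraries were left out. The call of Sobic.002G058000 (adjusted p = 0.0126 from limma) was lost without WT 6 DPA replicate 1 (0.0518), wxe 6 DPA replicate 2 (0.0603) or wxe 11 DPA replicate 2 (0.0508), and with a pseudocount of 0.1 (0.0782).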

How the results depend on the processing

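The 40 genes described kept direction and call for the WT change in 625 of 677 combinations of gene and alternative. This count depends on which alternatives were run, and several change the fit little. The replicate block kept 6816 of the 6819 WT calls, and the fit with no variance trend kept 6817. Rescaling each library to the same FPKM sum, with or without the 3 kafirins, moved the genes called from 6819 to 11610 and 11119, those higher to 1097 and 1179, and those lower to 10513 and 9940. This rescaling turned SbSBEIIb (-0.71, -0.64), SbAGPLS1 (-0.71, -0.64), SS2 (-0.68, -0.61), Sobic.001G403400 (-0.80, -0.73) and Sobic.003G267400 (-0.79, -0.72), and left 4616 and 4699 of the 6819 calls in the same direction. The rest of the 6819 were no longer called, and none was called in the opposite direction. For the difference between genotypes it gave 4658 and 4759 genes higher in place of 2453, and quantile normalization gave 3832. A filter at a mean of 5 FPKM, which tests fewer genes, left 2222 genes lower in WT and 2467 with a lower change in wxe. Quantile normalization also turned Sobic.009G001600 (-0.37), Sobic.002G160400 (0.042) and Sobic.002G291200 (0.087). Sobic.007G083900, at 0.00, took a positive sign with median-ratio scaling (0.012) and with the rescaling without genes above 1000 FPKM, chosen after seeing the data (0.048). Leaving out 1 library at a time turned values near 0, which ranged from -0.17 to 0.037 for Sobic.002G291200, from -0.26 to 0.049 for SbSWEET16, from -0.065 to 0.17 for Sobic.003G267400, from -0.055 to 0.049 for Sobic.007G083900, and from -0.12 to 0.37 for the difference between genotypes of SbAGPLS2. With the fold limit set on the FPKM ratio, SbSSIIIb was called lower. With 1 WT library left out, 6456 to 6696 genes were called, 3126 to 3271 higher and 3298 to 3499 lower, and with 1 of the 8 WT and wxe libraries left out the difference between genotypes was called for 5013 genes (without wxe 6 DPA replicate 2) to 7345 genes (without wxe 6 DPA replicate 1), 1986 to 2997 higher and 3027 to 4348 lower. The lone library of an age is then assumed to vary like the other groups. With the replicate number as a block, 6859 genes were called in WT and 6475 for the difference. The labels do not say whether equal replicate numbers pair the samples. The replicate differences of WT at 6 and 11 DPA had a correlation of -0.06 over genes. Between other groups it reached -0.29 (WT and wxe at 6 DPA) and 0.40 (wxe at 6 and 11 DPA). For the later WT steps, rescaling to the same FPKM sum gave 3585 genes higher from 11 to 16 DPA in place of 2258, and 1094 higher and 2334 lower from 16 to 21 DPA in place of 1710 and 1528. Except where the alternative's construction gives it, the cause was not tested. Changes of genes near 1 FPKM are limited by the smaller number of fragments behind a given FPKM value at 11 DPA.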
